A study of Mus musculus with 84 samples.

Results

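T cells are not what the cell sort of this study was built to collect, yet transcripts of the T cell receptor complex were counted in astrocyte libraries from mice with experimental autoimmune encephalomyelitis (EAE), a mouse model of multiple sclerosis. The 10 genes described here, Cd3e, Cd3d, Cd3g, Trac, Trbc2, Cd4, Cd8a, Gzmb, Nkg7 and Ltb, were chosen by name as T cell and cytotoxic lymphocyte transcripts. The rule itself uses no measured value, but the choice was made with earlier results of these data known. These genes are 10 of the 48526 genes in the table of the 66 EAE libraries, and all 10 reached the summed count of 10 needed to enter the tests, as did 23324 genes in all. A smaller table, of 15 libraries from unimmunized FVB/N mice and 3 of cultured neonatal astrocytes from C57BL/6J mice, lists 6 of them.

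The study sorted live cells that were negative for CD11B and CD45, positive for ACSA-2, and either positive or negative for GLAST, and sequenced the 3′ ends of their mRNA. Female C57BL/6 mice aged 10 weeks received the myelin peptide MOG35-55 in complete Freund's adjuvant, and pertussis toxin. They were taken at clinical score 1, a limp tail (E1), at score 4, complete paralysis of the hind legs (E4), or in the chronic phase (Ech). Unimmunized mice of the same strain served as controls (C) and a library could combine the cells of 2 mice. The hindbrain (cerebellum and brain stem) gave a GLASTneg population with 5, 6, 6 and 6 libraries for C, E1, E4 and Ech, and a GLASTpos population with 5, 6, 6 and 4. The spinal cord (cervical and thoracic) gave a GLASTneg population with 5, 5, 6 and 6 libraries. CD45, the product of Ptprc, was thus an antigen that the sort selected against in every library, and T cells carry it.

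T cells recognise peptide antigen through an alpha and a beta receptor chain, which have no signalling tails of their own and depend on the CD3 chains for assembly, transport to the surface and signalling. CD4 and CD8 mark helper and cytotoxic T cells and bind the antigen-presenting molecule beside the receptor, and granule proteins such as granzyme B serve killing by cytotoxic T cells and natural killer cells. EAE induced with a myelin peptide is a disease of CD4 T cells, which enter the central nervous system and are restimulated there.

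The libraries held 1313682 to 4895220 counts, with a median of 2936680, so that 3 counts, the limit that a count of 0 allows, stood for 0.634 to 2.44 CPM (counts scaled to library size with TMM, the trimmed mean of M values). Summed over 10 astrocyte genes, hindbrain libraries held 18130 to 30927 CPM at all stages, whereas the spinal cord libraries held 13071 to 18366 CPM in controls, 4317 to 22252 CPM at E1, 2430 to 3930 CPM at E4 and 3500 to 5976 CPM at Ech. The labelled astrocyte identity was therefore weakest in the spinal cord libraries of E4 and Ech. Summed over 8 oligodendrocyte genes, hindbrain libraries held 1026 to 10870 CPM, and spinal cord libraries held 13359 to 38180 CPM in controls, 24317 to 54829 CPM at E1, 25715 to 69122 CPM at E4 and 22855 to 37010 CPM at Ech. Every spinal cord library of E1, E4 and Ech thus held more RNA of the oligodendrocyte genes than of the astrocyte genes. So did spinal cord control replicate 2 (18156 against 17005 CPM) and replicate 3 (38180 against 13071 CPM), but not control replicates 1, 4 and 5. The part of this in the results was not tested. Further, 3 libraries stood apart on 8 genes shared by leukocytes, with sums of 1127 CPM (hindbrain GLASTpos E4 replicate 1), 1103 CPM (spinal cord E4 replicate 2) and 1095 CPM (hindbrain GLASTpos E1 replicate 4), against at most 362 CPM in any other library. For the 10 genes, calls against control that rest on these 3 libraries are given with and without them. Calls of genes in the other lists are given with these libraries only, since they were not repeated without them. Spinal cord E1 replicate 1 is titled as spinal cord while its other labels name the hindbrain, and it was kept under its title; Ltb, the 1 gene of the 10 called in spinal cord E1, was still called without it. In bulk RNA of sorted cells, a larger number of T cells and more RNA per T cell cannot be told apart.

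The T cell receptor chains come first. Trbc2 (ENSMUSG00000076498, chr6:41546730-41548352, plus strand, GRCm38) encodes a constant region of the beta chain and lies downstream of its near copy Trbc1. The stretch from base 361 to base 480 of both transcripts is shown because it holds the bases by which reads of the 2 genes can be assigned, with the differing bases in capitals.
Trbc1: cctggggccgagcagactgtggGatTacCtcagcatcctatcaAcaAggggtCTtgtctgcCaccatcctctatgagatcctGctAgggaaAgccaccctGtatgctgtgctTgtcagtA
Trbc2: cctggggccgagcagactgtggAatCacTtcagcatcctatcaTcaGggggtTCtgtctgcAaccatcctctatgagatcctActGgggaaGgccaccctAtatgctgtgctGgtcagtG
The 518 coding bases compared differed at 23 positions, 14 of them in this stretch. Of the 643 windows of 50 bases, the read length, in the Trbc2 transcript, 283 (44.01%) occur in Trbc1 too, the last of them ending at base 382 of 692. Reads from the 3′ part of Trbc2 therefore have no exact match in Trbc1, while reads from further upstream could be shared. This leaves the split of counts between the pair uncertain. Matches to other genes were not examined.

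Trbc2 was listed at 0 counts in all 5 hindbrain GLASTneg controls and in all 5 hindbrain GLASTpos controls. In the hindbrain GLASTpos population it ranged from 0 to 197 CPM at E1 with a median of 19.9 CPM, from 6.76 to 257 CPM at E4 with a median of 18.5 CPM, and from 0 to 21.1 CPM at Ech with a median of 9.32 CPM. Every E4 library lay above every control library, while 1 library at E1 and 1 at Ech were at 0 like the controls. Set against the limit of 3 counts over the control group, the pooled Trbc2 level was at least 257-fold higher at E1, at least 405-fold higher at E4 and at least 47.4-fold higher at Ech. These bounds concern the control count alone. The highest library held 544 of the 927 pooled counts at E1 and 1101 of the 1540 at E4, and pooled folds without it were not computed. With edgeR's quasi-likelihood test and Benjamini-Hochberg adjustment over all genes tested, Trbc2 passed at E1 (adjusted p = 0.00017), at E4 (adjusted p = 8.6e-05) and at Ech (adjusted p = 0.016). It was called at E1 and E4 without the 3 libraries that stood apart as well, whereas the Ech call was lost without Ech replicate 1 (adjusted p = 0.065) or control replicate 5 (adjusted p = 0.054).

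In the hindbrain GLASTneg population Trbc2 was lower in range. It reached 0.814 to 34.4 CPM at E1 (median 8.37 CPM) and 2.67 to 25.9 CPM at E4 (median 8.66 CPM), so that all 12 of these libraries lay above all controls. At Ech it was at 0 in 3 of the 6 libraries and reached 14.9 CPM in the highest. The pooled level was at least 43.1-fold higher than the control limit at E1, at least 37.1-fold at E4 and at least 12.8-fold at Ech. The test called it higher at E1 (adjusted p = 0.030) and E4 (adjusted p = 0.029) and not at Ech (adjusted p = 0.65). Both calls were weak: leaving out any 1 control library ended them (adjusted p from 0.080 to 0.098 at E1 and from 0.074 to 0.10 at E4), as did leaving out E1 replicate 4 (adjusted p = 0.12) or E4 replicate 1 (adjusted p = 0.073).

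In the spinal cord 1 of the 5 controls held 4 counts of Trbc2 (1.26 CPM) and the other controls were at 0. The E1 libraries held 0, 14, 19, 0 and 26 counts, the E4 libraries 3.38 to 21.8 CPM with a median of 9.16 CPM, and the Ech libraries 0.899 to 5.17 CPM with a median of 1.61 CPM. All 6 E4 libraries lay above all 5 controls. The pooled level rose 33.7-fold at E4 (log2 fold change 4.93 ± 1.42, SE, adjusted p = 0.0068), a call that stood without replicate 2, the library with the most leukocyte RNA, and the changes at E1 (13.4-fold, adjusted p = 0.11) and Ech (8.58-fold, adjusted p = 0.16) did not pass.

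Trac (ENSMUSG00000076928, chr14:54220521-54224206, plus strand), the constant region of the alpha chain, behaved differently from its partner. The 5 hindbrain GLASTneg controls held 15, 19, 15, 47 and 11 counts (6.18 to 16.3 CPM), although none of them held a Trbc2 or Cd3d count. The EAE libraries of that population overlapped them at every stage, with medians of 14.1 CPM at E1, 16.2 CPM at E4 and 12.1 CPM at Ech, and no stage passed the test (log2 fold changes 0.71 ± 0.90, 0.75 ± 0.90 and 0.20 ± 0.90, SE, adjusted p from 0.99 to 1). In unimmunized FVB/N isolates the same was seen: 14 of 15 libraries had more than 3 Trac counts, while Trbc2 was at 0 in all 15. Trac reached at most 28.7 CPM there, scaled to total counts without TMM and so not the same measure as in the EAE libraries. Hindbrain GLASTpos controls held 9, 8, 5, 0 and 0 Trac counts. Their E4 libraries held 0 to 107 CPM with a median of 8.85 CPM, and the call at E4 (log2 fold change 3.85 ± 1.05, adjusted p = 0.029) rested on replicate 1 with 457 counts, since without it the log2 fold change was 2.02 (adjusted p = 0.27). It was also lost without control replicate 3, 4 or 5 (adjusted p from 0.071 to 0.097). Spinal cord Ech libraries held 0, 9, 0, 0, 0 and 1 counts against 13, 0, 3, 22 and 6 in the controls, a log2 fold change of -2.68 ± 1.08 that missed the threshold (adjusted p = 0.071). Without Ech replicate 2 it passed as lower (-5.10, adjusted p = 0.0053), as it did without control replicate 2 (-3.01, adjusted p = 0.045). Trac thus differed from Trbc2 in having a level in control isolates. The source of those reads was not tested.

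**Figure D1:**
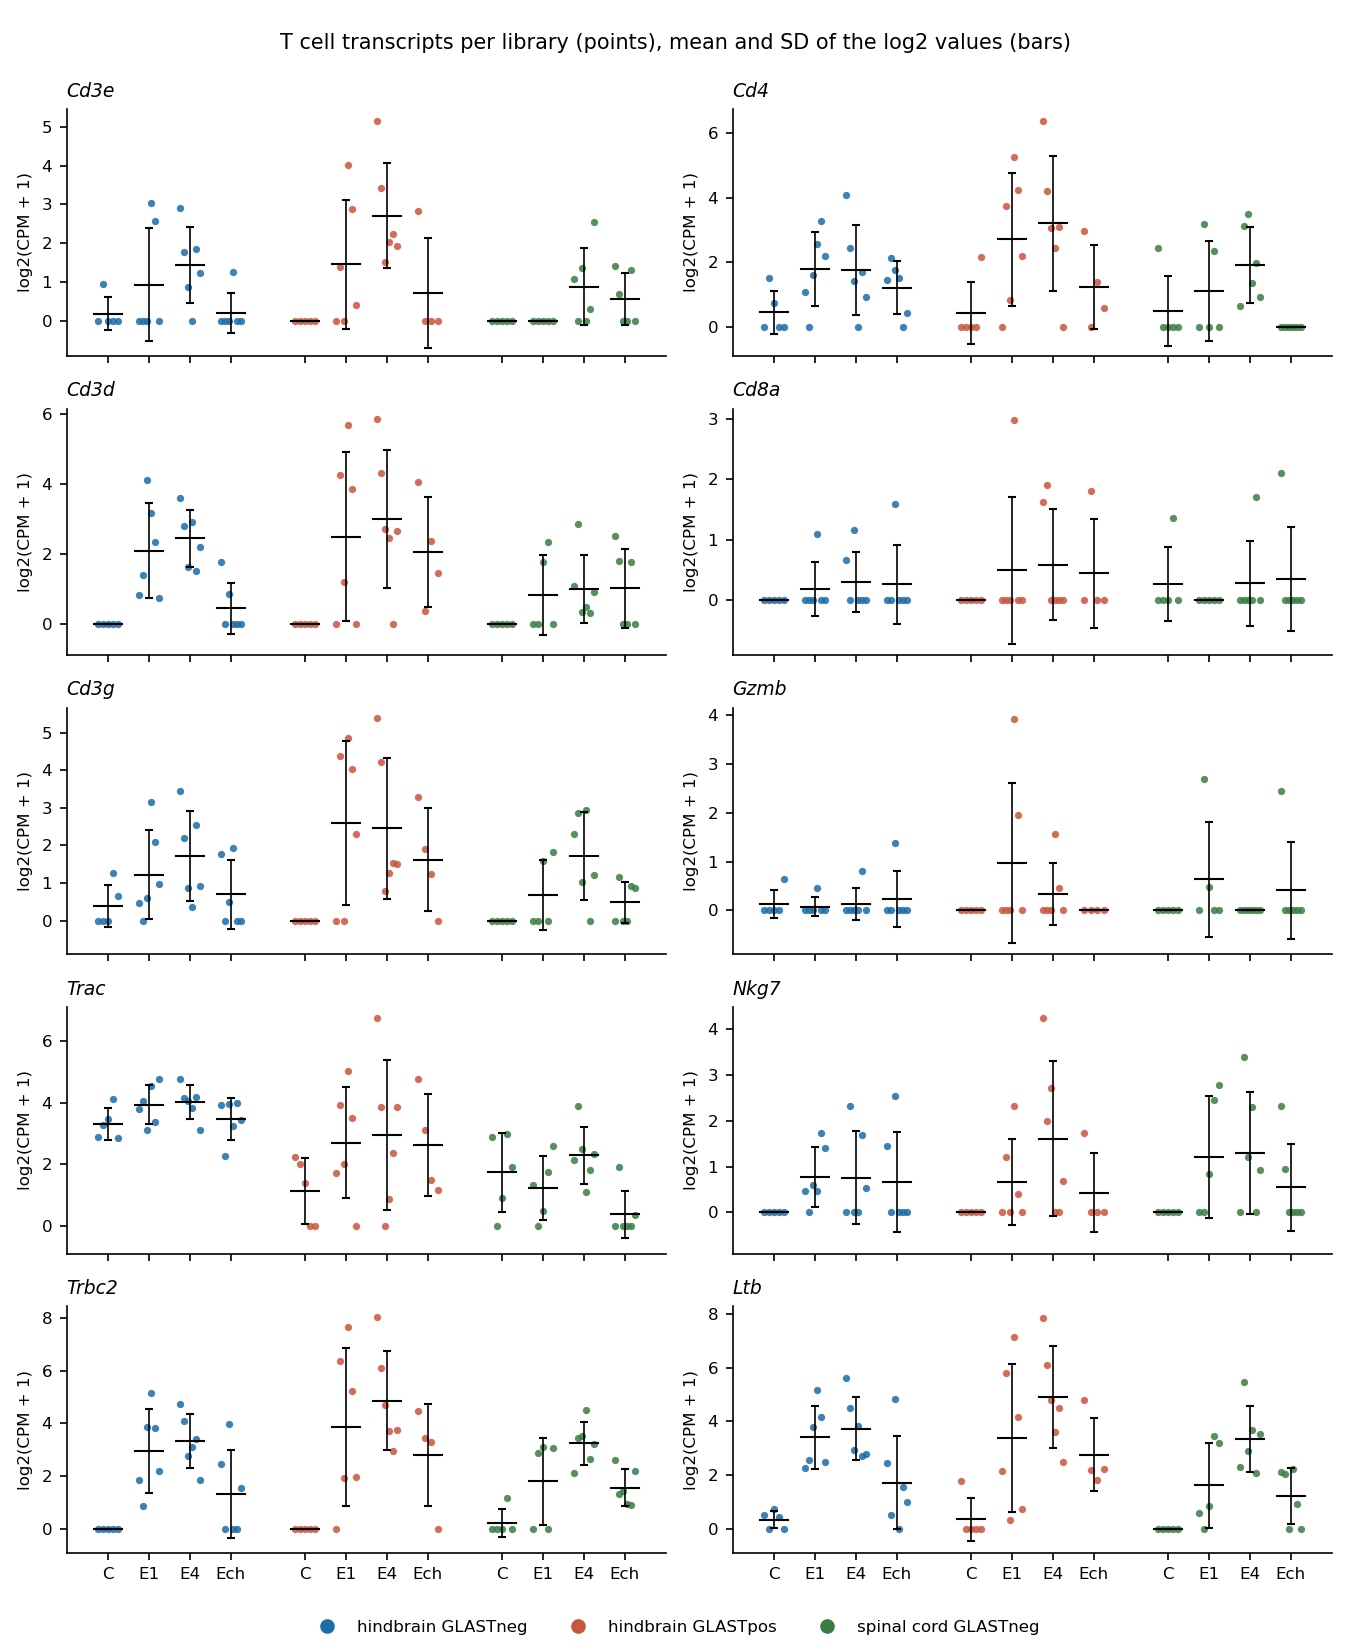
Level of each of the 10 T cell genes in every library, as log2(CPM + 1), by stage (C, E1, E4, Ech) for hindbrain GLASTneg (blue), hindbrain GLASTpos (red) and spinal cord GLASTneg (green). Points are libraries, the horizontal bar is the group mean and the whiskers are 1 SD of the log2 values. Trbc2 and Cd3d lie at 0 in nearly all controls, single hindbrain GLASTpos libraries of E1 and E4 lie far above their group, and Trac is above 0 in all hindbrain GLASTneg controls.

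Cd3e, Cd3d and Cd3g encode the CD3 epsilon, delta and gamma chains and lie together within 40056 bases of chromosome 9, Cd3g (ENSMUSG00000002033) at chr9:44969572-44980431 (minus strand), Cd3d (ENSMUSG00000032094) at chr9:44981786-44987339 (plus strand) and Cd3e (ENSMUSG00000032093) at chr9:44998740-45009627 (minus strand). Cd3g and Cd3d start 1355 bases apart on opposite strands. Cd3e overlaps the predicted gene Gm48720 on its own strand and Gm48719 on the other, so a part of its reads may have been discarded or assigned to these. The 250 bases before each start (RefSeq, GRCm38.p6) are shown because the 3 genes were counted in largely the same libraries. Capitals mark the core letters CTTTG of TCF and LEF factors or their reverse complement CAAAG.
Cd3e (chr9:45009612-45009861, minus strand): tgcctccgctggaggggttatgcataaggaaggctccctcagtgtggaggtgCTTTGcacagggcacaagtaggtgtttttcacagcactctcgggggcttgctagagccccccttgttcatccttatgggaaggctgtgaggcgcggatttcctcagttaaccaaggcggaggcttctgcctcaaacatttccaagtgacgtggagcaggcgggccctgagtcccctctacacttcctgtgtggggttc
Cd3d (chr9:44981536-44981785, plus strand): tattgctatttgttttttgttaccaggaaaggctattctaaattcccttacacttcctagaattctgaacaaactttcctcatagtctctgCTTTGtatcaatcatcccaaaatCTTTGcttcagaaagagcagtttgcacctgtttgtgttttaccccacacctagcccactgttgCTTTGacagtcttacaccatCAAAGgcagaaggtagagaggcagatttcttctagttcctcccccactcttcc
Cd3g (chr9:44980432-44980681, minus strand): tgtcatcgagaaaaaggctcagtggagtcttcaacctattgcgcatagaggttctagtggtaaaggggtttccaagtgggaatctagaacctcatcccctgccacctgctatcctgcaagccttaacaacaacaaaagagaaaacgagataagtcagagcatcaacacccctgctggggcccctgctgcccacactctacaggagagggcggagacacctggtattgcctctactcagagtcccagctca
These letters occur once before Cd3e, 4 times before Cd3d and not at all before Cd3g, and 48.7% of 32536 such windows hold them. The ETS core GGAA (or TTCC), with 5, 6 and 2 matches, is in 93.4% of all windows, and the motif CANNTG of E-box factors, with 1, 1 and 3 matches, in 66.2%. None of these 3 windows held the TATA box core TATAA (or TTATA), which 22.7% of all windows do. A match is a description of these letters and says nothing of binding.

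Cd3d was at 0 counts in all 15 control libraries of the 3 populations. In the hindbrain GLASTpos population it held 0, 55, 5, 139, 42 and 0 counts at E1, 244, 76, 15, 16, 0 and 17 at E4 and 41, 1, 18 and 7 at Ech. The pooled level was at least 66.8-fold higher than the control limit at E1 (adjusted p = 0.0079), at least 96.7-fold at E4 (adjusted p = 0.0054) and at least 24.6-fold at Ech (adjusted p = 0.042). The chronic call was the weakest and ended without any 1 control library (adjusted p from 0.080 to 0.11) or without Ech replicate 1 (adjusted p = 0.16). In the hindbrain GLASTneg population Cd3d was above 0 in all 6 E1 libraries (2 to 32 counts) and all 6 E4 libraries (5 to 23 counts), which did not overlap the controls, yet it missed the threshold at both stages (adjusted p = 0.11 at each). Spinal cord libraries held 2, 14, 1, 1, 1 and 2 counts at E4 (at least 5.69-fold higher, adjusted p = 0.046) and 20, 8, 0, 0, 8 and 0 at Ech (at least 7.77-fold higher, adjusted p = 0.044). Replicate 2 held 14 of the 21 counts at E4, and without it the call was lost (adjusted p = 0.17), as it was without E4 replicate 1 (adjusted p = 0.050) or any 1 control (adjusted p from 0.073 to 0.083). The call at Ech was lost without replicate 1, 2 or 5 (adjusted p from 0.060 to 0.10) or any 1 control (adjusted p from 0.073 to 0.083).

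Cd3g was called in 3 of the comparisons with control and Cd3e in 1. Cd3g was at 0 in all hindbrain GLASTpos and spinal cord controls. In hindbrain GLASTpos libraries it reached 27.9 CPM at E1 (at least 54.6-fold higher, adjusted p = 0.0095) and 40.6 CPM at E4 (at least 69.1-fold higher, adjusted p = 0.0076), with medians of 9.66 and 1.86 CPM. In the spinal cord E4 libraries it held 7, 14, 4, 17, 0 and 3 counts (at least 12.2-fold higher, adjusted p = 0.0096). It missed the threshold at Ech in hindbrain GLASTpos (adjusted p = 0.065, or 0.050 and passing without Ech replicate 4) and at each stage in hindbrain GLASTneg, where 1 control held 4 counts. Cd3e was called in hindbrain GLASTpos E4 alone, where its 6 libraries held 149, 39, 5, 11, 10 and 9 counts against 0 in all controls (at least 58.6-fold higher, adjusted p = 0.023). Without replicate 1 it missed the threshold (adjusted p = 0.063), as it did without any 1 control library (adjusted p from 0.055 to 0.065). In spinal cord E4 it held 2, 0, 6, 0, 1 and 11 counts and missed the threshold (adjusted p = 0.051), which it passed without replicate 2, 4 or 5 (adjusted p from 0.042 to 0.046). In spinal cord E1 no library held a Cd3e count, where the limit that a count of 0 allows is 3 counts a library.

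Cd4 (ENSMUSG00000023274, chr6:124864692-124888221, minus strand), the coreceptor of helper T cells, had more than 3 counts in 32 of the 66 libraries. It was called higher than control in no comparison: 1 control library of each population held 4, 14 or 9 counts, and the EAE libraries spread widely. In hindbrain GLASTpos E4 the 6 libraries held 357, 71, 20, 16, 20 and 0 counts (log2 fold change 4.68 ± 1.46, SE, adjusted p = 0.073), and in E1 0, 38, 3, 104, 56 and 11 counts (3.94 ± 1.42, adjusted p = 0.15). Without control replicate 5, which held all 14 control counts, both passed (adjusted p = 0.015 at E4 and 0.036 at E1). In spinal cord E4 Cd4 likewise passed without control replicate 1, which held all 9 control counts (adjusted p = 0.019, against 0.23 with it). Cd4 was the 1 gene of the 10 that changed between stages. In the spinal cord it held 1, 17, 40, 4, 13 and 2 counts at E4 and 0 counts in all 6 Ech libraries, a pooled level at least 32.2-fold lower at Ech (adjusted p = 0.014), where 1.22% of all genes tested were called lower. All 6 E4 libraries lay above all 6 Ech libraries, but the lowest held 1 and 2 counts, within the limit of 3 that a count of 0 allows. The share of all genes that separate these stages was not computed.

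Cd8a (ENSMUSG00000053977, chr6:71373427-71379173, plus strand), a chain of the cytotoxic T cell coreceptor, had more than 3 counts in 8 of 66 libraries and at most 19 counts in any. That library was hindbrain GLASTpos E1 replicate 4, and the highest at E4 in that population held 11. Spinal cord libraries included 1 control with 5 counts, 1 E4 library with 10 and 1 Ech library with 14. No comparison called it (adjusted p from 0.20 to 1), with 20 counts over the 6 hindbrain GLASTpos E4 libraries against 0 in the controls (adjusted p = 0.20).

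Gzmb (ENSMUSG00000015437, chr14:56258838-56262260, minus strand) encodes granzyme B, a serine protease of cytotoxic granules. It had more than 3 counts in 6 of 66 libraries, the highest being 39 counts in hindbrain GLASTpos E1 and 19 in spinal cord Ech, and 55 libraries were at 0. It was not called at any stage (adjusted p from 0.10 to 1). Nkg7 (ENSMUSG00000004612, chr7:43437073-43438249, plus strand), a granule protein of natural killer cells and cytotoxic T cells, was at 0 in all 15 controls. It was called in spinal cord E4 (at least 10.3-fold higher, adjusted p = 0.029), where its libraries ranged from 0 to 21 counts and 2 of 6 were at 0 like the controls. That call was lost without replicate 2 (adjusted p = 0.071) and without any 1 control library (adjusted p from 0.054 to 0.060). In hindbrain GLASTpos E4 Nkg7 reached 77 counts in 1 library and missed the threshold (at least 27.9-fold higher, adjusted p = 0.072).

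Ltb (ENSMUSG00000024399, chr17:35194439-35196320, plus strand) encodes lymphotoxin beta, a membrane cytokine of the tumour necrosis factor family that T cells, B cells and innate lymphoid cells make. It contains the microRNA gene Mir6973a on the same strand. It was called higher in 5 of the 9 comparisons with control, as was Cd3d, and Trbc2 in 6. In hindbrain GLASTpos libraries it ranged from 0.256 to 138 CPM at E1 with a median of 10.0 CPM (log2 fold change 6.32 ± 1.37, SE, adjusted p = 0.0038). At E4 it ranged from 4.63 to 231 CPM with a median of 24.3 CPM (7.09 ± 1.40, adjusted p = 0.00070). The E4 libraries did not overlap the controls, which held 6, 0, 0, 0 and 0 counts, while the E1 libraries did. At Ech the libraries held 70, 13, 11 and 15 counts and missed the threshold (adjusted p = 0.094), which they passed without control replicate 1, which held all 6 control counts (adjusted p = 0.047).

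In hindbrain GLASTneg controls Ltb held 1, 0, 1, 1 and 0 counts. The E1 libraries held 3.76 to 34.8 CPM (median 8.89 CPM) and the E4 libraries 5.54 to 48.2 CPM (median 9.86 CPM), and neither group overlapped the controls. The pooled level at E4 was 53.4-fold that of the controls, with a 95% interval for counting error alone of 18.05 to 261, and passed (adjusted p = 0.039), whereas E1 with 48.9-fold (16.5 to 239) missed it (adjusted p = 0.071). The E4 call ended without any 1 control library (adjusted p from 0.085 to 0.15) and without E4 replicate 1 (adjusted p = 0.15) or 2 (adjusted p = 0.057). In the spinal cord Ltb was at 0 in all controls, held 2, 0, 2, 29 and 29 counts at E1 (at least 18.8-fold higher, adjusted p = 0.031) and 3.18 to 43.1 CPM at E4 (median 8.57 CPM, at least 53.1-fold higher, adjusted p = 0.00053). The E1 call ended without E1 replicate 4 (adjusted p = 0.092) or replicate 5 (adjusted p = 0.072) or any 1 control (adjusted p from 0.056 to 0.070), and the E4 call stood without replicate 2, the highest library. At Ech it held 14, 10, 0, 8, 3 and 0 counts (adjusted p = 0.068).

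Counted over the 10 genes, the hindbrain GLASTpos population had 4 called higher at E1 (Cd3d, Cd3g, Trbc2 and Ltb), 6 at E4 (these and Cd3e and Trac) and 2 at Ech (Cd3d and Trbc2), where 1.27%, 1.66% and 1.21% of all genes tested were called higher. The median log2 fold change of the 10 was 6.20, 6.92 and 4.15 as fitted, and 4.09, 5.34 and 2.55 with genes at 0 in the controls set to the bound that 3 counts allow. The median over all genes tested was 0 in these comparisons. Without the 3 libraries that stood apart 4 were still called at E1 and 4 at E4, with Cd3e and Trac lost. Fitted fold changes of genes at 0 in the controls depend on the prior count, so the medians with bounds stand beside them.

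The hindbrain GLASTneg population had 1 of the 10 called higher at E1 (Trbc2), 2 at E4 (Trbc2 and Ltb) and none at Ech, against 0.635%, 0.707% and 0.189% of all genes tested. At Ech 3 of the 10 had an unadjusted p under 0.05, and DESeq2 called none either. The fitted median of the 10 was 2.98, 3.15 and 2.40, and 2.98, 2.96 and 1.07 with the bounds. The spinal cord population had 1 called higher at E1 (Ltb), 5 at E4 (Cd3d, Cd3g, Trbc2, Nkg7 and Ltb) and 1 at Ech (Cd3d), against 2.50%, 6.80% and 5.16% of all genes tested. Its fitted median was 4.09, 4.95 and 3.82, and 2.09, 2.51 and 1.81 with the bounds. None of the 10 was called lower than control in any population, where at E1, E4 and Ech 0.00857%, 0.0214% and 0.00429% of all genes tested were called lower in hindbrain GLASTneg, 0.214%, 0.369% and 0.0986% in hindbrain GLASTpos, and 3.68%, 11.1% and 9.57% in the spinal cord. Titles of the libraries carry a number after the letter S whose meaning the labels do not give, and all spinal cord controls have numbers above 56 while spinal cord EAE libraries lie on both sides of it. With that split as a covariate the spinal cord E4 count fell from 5 to 2 (Trbc2 and Ltb) and the Ech count from 1 to 0. Hindbrain GLASTneg libraries all have S numbers from 25 to 56 and hindbrain GLASTpos libraries all from 61 to 95. In the hindbrain, population and this split therefore cannot be told apart.

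Another description asks whether every EAE library lay above every control library. In hindbrain GLASTneg this held for Cd3d, Trbc2 and Ltb at E1 and at E4 and for none of the 10 at Ech, against 1.46%, 1.81% and 0.815% of all genes tested. In hindbrain GLASTpos it held for none at E1, for Cd3e, Cd3g, Trbc2 and Ltb at E4 and for Cd3d and Ltb at Ech, against 0.609%, 1.09% and 2.25%. Spinal cord libraries met it for none of the 10 at E1, for Cd3d, Trbc2 and Ltb at E4 and for none at Ech, against 1.96%, 5.35% and 5.11%. Where all controls were at 0, a single count in each EAE library was enough, which is below the limit of 3 counts. The lowest library held 1 count for Cd3d in spinal cord E4 and for Trbc2 in hindbrain GLASTneg E1.

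**Figure D2:**
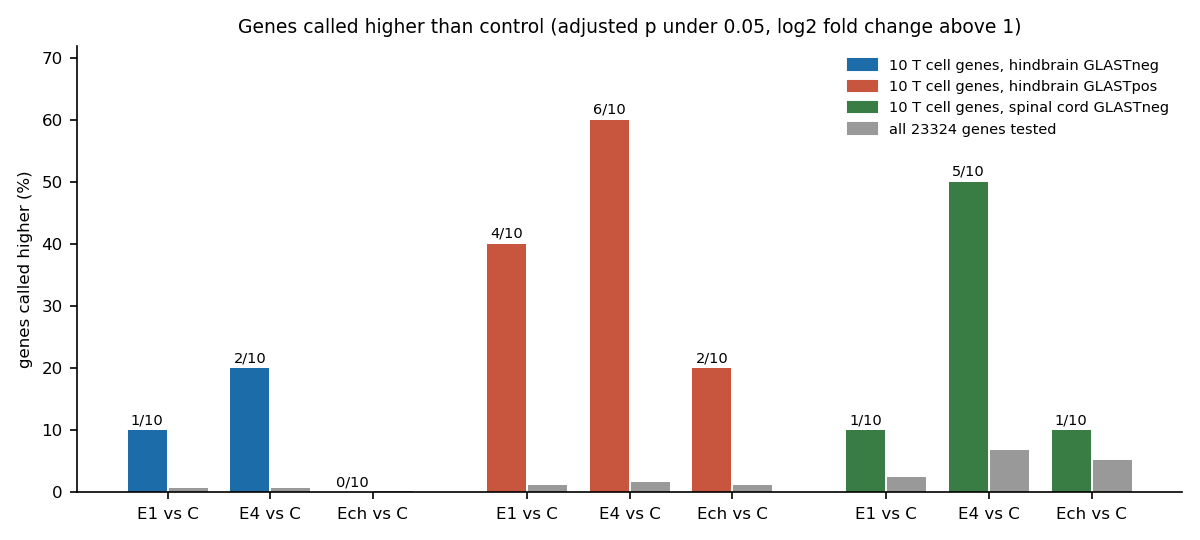
Percent of genes called higher than control at each stage, for the 10 T cell genes (coloured bars, with the count above each) and for all 23324 genes tested (grey bars). The T cell genes are called most often in hindbrain GLASTpos E4 (6 of 10) and spinal cord E4 (5 of 10).

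No gene of the 10 was called for a difference in response between populations, whether hindbrain GLASTpos or spinal cord was set against hindbrain GLASTneg. At E1, E4 and Ech the spinal cord response was called larger for 0.0686%, 1.92% and 1.54% of all genes tested and smaller for 0.146%, 6% and 5.26%, and the GLASTpos response was called larger for 0.00857%, 0% and 0.0557% and smaller for 0%, 0.00857% and 0.00429%. For Trbc2, Cd3d, Cd8a and Nkg7 the GLASTpos difference could not be estimated, since both control groups were at 0. For Trac the response at E4 was 3.10 ± 1.32 (log2, SE) larger in GLASTpos than in GLASTneg and missed the threshold (adjusted p = 0.43), and for Ltb it was 1.40 ± 2.57 (adjusted p = 1.0). In this unpaired test the higher count of calls in GLASTpos libraries was not accompanied by a called difference in response. Between consecutive stages 1 of the 10 was called in all, the fall of Cd4 in the spinal cord described above. From E1 to E4, 0% of all genes tested were called higher and 0% lower in hindbrain GLASTneg, 0.00857% and 0.0129% in hindbrain GLASTpos, and 0.832% and 3.97% in the spinal cord. From E4 to Ech these shares were 0% and 0.0857%, 2.7% and 0.913%, and 1.95% and 1.22%. Among the controls none of the 10 was called between populations, where 2.62% of all genes tested were higher and 1.58% lower in spinal cord than in hindbrain GLASTneg, and 3.4% higher and 7.06% lower in hindbrain GLASTpos. The GLASTneg hindbrain controls all have S numbers up to 56 in their titles and the other controls all have higher ones. That split and population cannot be told apart among the controls. Lower values at Ech than at E4 that missed the threshold included Ltb in the spinal cord (-2.88 ± 1.04, adjusted p = 0.10) and Trbc2 in hindbrain GLASTpos (-2.69 ± 1.12, adjusted p = 0.14).

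**Figure D3:**
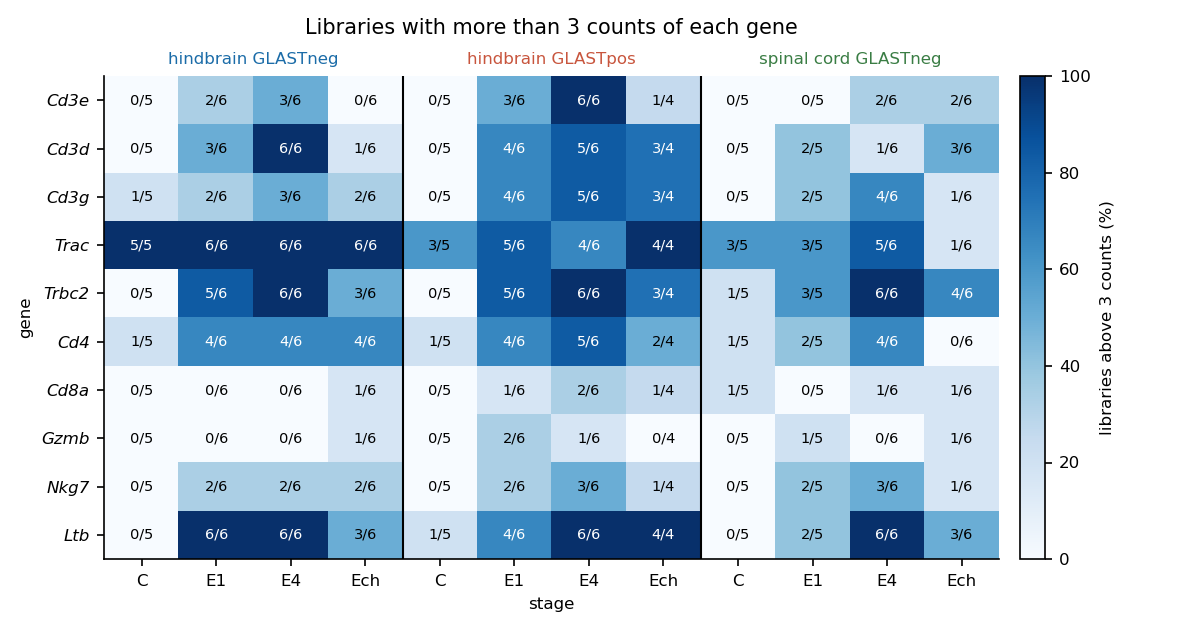
Number of libraries with more than 3 counts of each gene, out of all libraries in the group, by population and stage; darker cells are a larger percent. Trbc2 and Ltb pass 3 counts in all 6 E4 libraries of every population, whereas Cd8a and Gzmb pass it in at most 2 libraries of any group.

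In the hindbrain GLASTpos EAE groups, T cell transcripts were concentrated in single libraries. In hindbrain GLASTpos E4, replicate 1 held 829.8 CPM summed over the 10 genes, which was 66.5% of the summed CPM of its group of 6, and in E1 replicate 4 held 523.7 CPM, or 60.01%. The highest of the 4 Ech libraries held 67.8%. In hindbrain GLASTneg E1 and E4 the highest library held 121 and 145 CPM, 37.5% and 39.6% of the group. The spinal cord E4 libraries ranged from 16.6 to 96.6 CPM with a median of 34.02 CPM. The number of the 10 genes above 3 counts in a library ran from 6 to 9 in hindbrain GLASTpos E4 (median 6.5), 4 to 8 in hindbrain GLASTneg E4 (median 6) and 4 to 7 in spinal cord E4 (median 5), and was at most 3 in any control library.

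Other leukocyte genes moved with these transcripts. Of 8 genes shared by leukocytes, 6, 7 and 3 were called higher in hindbrain GLASTpos at E1, E4 and Ech, 1, 1 and none in hindbrain GLASTneg, and 5, 8 and 3 in the spinal cord. Of all genes tested, 1.27%, 1.66% and 1.21% were called higher in hindbrain GLASTpos and 0.635%, 0.707% and 0.189% in hindbrain GLASTneg. In the spinal cord these shares were 2.5%, 6.8% and 5.16%. Ptprc, the gene of the antigen of the negative gate, was at 0 in all hindbrain GLASTpos controls and ranged from 1.97 to 211 CPM at E1 and from 4.93 to 147 CPM at E4. The summed level of the 8 genes was 0.817 to 33.3 CPM in hindbrain GLASTpos controls, 22.5 to 1095 CPM at E1 and 65.7 to 1127 CPM at E4, and the library highest in T cell transcripts was the highest here at both stages. The spinal cord sum was 0 to 8.43 CPM in controls and 42.9 to 1103 CPM at E4.

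Myeloid genes were highest in the same library as the 10 T cell genes in 6 of the 9 EAE groups. Of 14 microglia and monocyte genes, 3, 3 and 1 were called higher in hindbrain GLASTpos, 1, 4 and 1 in hindbrain GLASTneg and 6, 12 and 4 in the spinal cord, at E1, E4 and Ech. The shares of all genes called higher are those given above for the leukocyte genes. Spinal cord E4 replicate 2 held 4918 CPM of these genes and 605 CPM of 10 neutrophil genes, and its Itgam level, the gene of CD11B, was 520 CPM, but its 5 T cell receptor and CD3 genes summed to 36.4 CPM. The 2 highest libraries in T cell transcripts, hindbrain GLASTpos E4 replicate 1 and E1 replicate 4, held 331 and 229 CPM of the myeloid genes, and 495 and 323 CPM of the 5 receptor and CD3 genes. The part of these other leukocytes in the counts of Nkg7 and Ltb, which more than 1 cell type makes, was not tested.

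**Figure D4:**
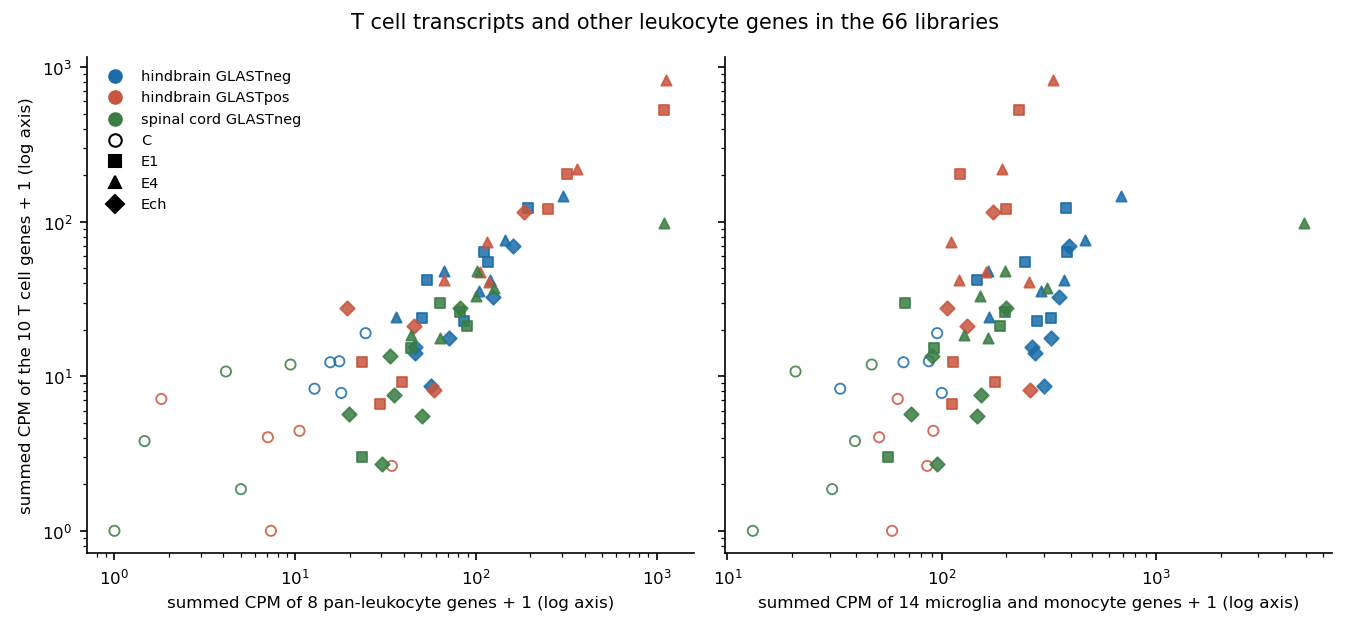
Summed CPM of the 10 T cell genes in each of the 66 libraries against the summed CPM of 8 pan-leukocyte genes (left) and of 14 microglia and monocyte genes (right), both plus 1 on log axes; colours are populations and symbols are stages, with open circles for controls. The hindbrain GLASTpos libraries with the most T cell transcripts (829.8 and 523.7 CPM) share the highest leukocyte sums with 1 spinal cord library, which alone has 4918 CPM of myeloid genes.

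Of 15 other genes of T cell receptor and CD3 signalling, 4 were called higher in hindbrain GLASTpos E1 (Lck, Lat, Skap1 and Cd28). At Ech none was called, and 1.27% and 1.21% of all genes tested were called higher at these stages. Those of the 15 called higher in E4 included Cd247, Trbc1, Lck, Lat, Skap1 and Cd28, where 1.66% of all genes tested were. None was called in hindbrain GLASTneg at any stage, where 6, 7 and 6 of the 15 had an unadjusted p under 0.05, as had 9.57%, 8.83% and 7.64% of all genes tested. In the spinal cord 1, 3 and 1 of the 15 were called (Cd2 at E1, Trbc1, Lck and Cd2 at E4, Lck at Ech), where 2.5%, 6.8% and 5.16% of all genes tested were called higher, so that the single call at Ech is near the background. Lck, the kinase that phosphorylates the CD3 chains, ranged from 2.94 to 170 CPM in hindbrain GLASTpos E4 with a median of 11.3 CPM against 0 to 4.24 CPM in the controls (log2 fold change 5.32 ± 1.30, SE, adjusted p = 0.010). Its libraries of E4 overlapped the controls.

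Of 17 helper and regulatory T cell genes, 16 could be tested. In hindbrain GLASTpos 4 were called higher at E1 (Tbx21, Il7r, Ctla4 and Icos) and these were called higher at E4 too. Of all genes tested, 1.27% and 1.66% were called higher there. Spinal cord libraries had Tnfrsf18 called higher at E1, Tbx21, Il2ra, Il7r, Icos and Tnfrsf18 at E4, and Tbx21 at Ech. There 2.5%, 6.8% and 5.16% of all genes tested were called higher, so the single calls at E1 and Ech are near the background. None of the 16 was called in hindbrain GLASTneg, against 0.635%, 0.707% and 0.189% of all genes tested. Tbx21 encodes T-bet, which directs the type 1 helper programme. Of 14 cytotoxic and natural killer genes 11 could be tested, and Ccl5, a chemokine of activated T cells, natural killer cells and other leukocytes, was the most frequent, called in 7 of the 9 comparisons. It was at 0 in all hindbrain controls and ranged from 3.39 to 33.6 CPM in hindbrain GLASTpos E4 (adjusted p = 0.0029). Which cells in these isolates gave the Ccl5 reads was not tested. Ctsw, Klrd1 and Gzma were each called once. Over the 9 comparisons 0.189% to 6.8% of all genes tested were called higher. Of 4 gamma-delta T cell genes 2 could be tested and neither was called, with 0 to 1 of them at an unadjusted p under 0.05 in a comparison. Of 8 B cell genes 7 could be tested and Ighm alone was called, at E1 and E4 of hindbrain GLASTpos and of the spinal cord. The shares of all genes called higher there are those given for the helper genes.

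The genes with levels most like those of the 5 receptor and CD3 genes were found among 14885 genes that averaged 1 CPM or more. The Pearson correlation of log2(CPM + 1) with log2(1 + summed CPM of Cd3e, Cd3d, Cd3g, Trac and Trbc2) over the 66 libraries was highest for Rac2 (r = 0.84), Snord13 (0.84), Cxcr6 (0.83), Lck (0.82), Il18r1 (0.81), Ms4a4b (0.80), Itgal (0.80), Lat (0.80), Cd52 (0.79) and Il2rb (0.79). These points share libraries, depth and stage, so the values are a description. Without the 3 libraries that stood apart, r was 0.81 for Rac2, 0.79 for Snord13, 0.78 for Cxcr6 and 0.76 for Lck. Among the 10 genes themselves the closest pair was Trbc2 and Ltb (r = 0.86), followed by Cd3g and Trbc2 (0.83), and the least close was Trac and Gzmb (-0.0042).

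The unimmunized FVB/N isolates gave a further background. Over 15 sorted libraries from forebrain, hindbrain and spinal cord, Trbc2 and Ltb were at 0 throughout, Cd3e reached 1 count, Cd4 3 counts and Nkg7 4 counts. The table does not list Cd3d, Cd3g, Cd8a and Gzmb. Trac was the exception described above. The 3 cultures of neonatal C57BL/6J astrocytes held at most 7 counts of any of the 6 genes.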

How the data were processed

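Gene counts of the 66 EAE libraries and of the table with FVB/N isolates and cultures were deposited by the authors as unnormalized counts per Ensembl gene. Per the labels and the study's methods, 3′ libraries (QuantSeq) were aligned with HISAT to GRCm38 and counted with HTSeq in union mode against Ensembl 82, and whether strand was used in counting is not given in the sources used here. Groups came from the labels. The 10 genes and all gene lists were chosen with earlier results of these data known.

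Genes with at least 10 counts in all were tested with edgeR 4.0.16 (R 4.3.3), using TMM scaling, 1 fit of all 12 groups, the quasi-likelihood test and Benjamini-Hochberg adjustment. A call needed an adjusted p under 0.05 and a log2 fold change beyond 1. CPM are TMM-scaled. Counting intervals cover counting error only. The labels do not say that libraries of a group came from separate animals, so p-values measure the spread between these libraries. Named were the 10 genes, up to 4 called genes of each list by mean CPM, the genes of the sort antigens and the 10 genes most correlated with the receptor and CD3 sum. Further called genes of the T cell lists were named after their values were seen. The fit was checked on simulated counts of hindbrain GLASTpos E4 against controls with 22433 genes, where 46% of log2 changes of 2 and 79% of those of 4 were recovered. Alternatives were DESeq2 1.42.0, other scalings, filters and dispersions, a fit of each population alone, a replicate block, the S number of the titles and leaving out each library. Leaving out the 3 libraries with the most leukocyte RNA was added after the data were seen. Same-numbered replicates of a stage and its control did not deviate together in every pair (correlations from -0.195 to 0.329), so they were not treated as pairs. That check sets different stages side by side, so it cannot show whether libraries of different populations came from the same mice. The tests of a difference in response treat those libraries as independent. Replicate numbers, also used for the replicate block, do not follow the bracketed numbers of the titles in every group. The FVB/N libraries carry labels that conflict with the study's group names, so these are given only as ranges. Results for some genes of the T cell lists are not reported here.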

Additional observations from a re-analysis of the deposited data

Results flagged for a closer look

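Among 52 sets of values with 4 to 10 libraries, 13 held a highest library whose gap to the next passed Dixon's 95% limit. For independent, normally distributed values about 1 in 20 would pass. These sets are CPM of low counts and share libraries, so that rate is no measure of chance here. Of these, 6 were hindbrain GLASTpos E4 replicate 1: Trbc2 at 257 CPM, Ltb at 231 CPM, Trac at 107 CPM, Cd4 at 83.2 CPM, Cd3d at 56.9 CPM and Cd3e at 34.7 CPM. The sum of the 10 genes in that library, 830 CPM, was set apart too. Hindbrain GLASTpos E1 replicate 4 was set apart for Cd3d at 50.4 CPM, and Ech replicate 1 of that population for Ltb at 26.8 CPM. In the spinal cord, E4 replicate 2 was set apart for Ltb at 43.1 CPM and Trac at 13.9 CPM. In hindbrain GLASTneg, E1 replicate 4 was set apart for Trbc2 at 34.4 CPM and E4 replicate 1 for Cd4 at 15.9 CPM.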

How the results depend on the processing

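The number of the 10 genes called higher than control depended on the test in several comparisons. In hindbrain GLASTneg E1 it was 1 as reported, 3 with DESeq2, with no filter, with the population fitted alone or with a replicate block, 2 without the 3 libraries with the most leukocyte RNA, and 0 with robust dispersions. Robust dispersions also gave 0 in hindbrain GLASTneg E4 (2 as reported), hindbrain GLASTpos Ech (2), spinal cord E1 (1) and spinal cord Ech (1). In hindbrain GLASTpos Ech DESeq2 and no filter gave 4, the population alone 0 and the replicate block 1. In spinal cord E1 DESeq2 and no filter gave 2. In spinal cord E4 the S number of the titles as a covariate gave 2 in place of 5. In spinal cord Ech DESeq2, no filter, the replicate block and leaving out the 3 libraries gave 2, and the S number 0. Between spinal cord stages, E4 against E1 gave 1 with the replicate block in place of 0, and Ech against E4 gave 2 with DESeq2 or edgeR's expression filter and 3 with no filter or the replicate block, in place of 1. Leaving out 1 library at a time gave 0 to 1, 0 to 2 and 0 to 0 called at E1, E4 and Ech in hindbrain GLASTneg, 4 to 5, 4 to 6 and 0 to 3 in hindbrain GLASTpos, and 0 to 1, 3 to 6 and 0 to 1 in the spinal cord. It gave 1 to 2 for spinal cord Ech against E4 and 0 to 1 for the spinal cord difference in response at Ech. The cause of these differences was not tested. No fold change against control that was called, here or under an alternative, turned direction. Uncalled ones did, such as Cd8a in spinal cord E4 (-3.11 to 3.38) and Ech (-3.10 to 3.82) and Cd3e in hindbrain GLASTneg Ech (-2.45 to 2.60). Depth limits Cd8a and Gzmb most, with 55 of 66 libraries at 0 counts for each.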

Other observations

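Titles of the hindbrain libraries carry a bracketed number that the labels do not explain. There were 13 EAE pairs of a GLASTpos and a GLASTneg library that share this number within a stage. Some pairs share a library, since they hold 11 different GLASTpos libraries. Trbc2 CPM was higher in the GLASTpos library in 11 of the 13 pairs, in 4 of 5 at E1, 4 of 4 at E4 and 3 of 4 at Ech. Ltb CPM was higher in the GLASTpos library in 9 of the 13, in 3 of 5 at E1, 2 of 4 at E4 and 4 of 4 at Ech. The 5 control pairs hold 3 different GLASTpos libraries, with Trbc2 at 0 in every library and Ltb higher in the GLASTpos library in 2. Whether the number pairs the libraries is not given, and no paired test was made on it. The S number of the titles separates all hindbrain GLASTneg from all hindbrain GLASTpos libraries, so it cannot be told apart from population in these pairs.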
